A study of Mus musculus with 2 samples.

Results

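The 77 genes described here belong to the core and linker histone families of mouse chromatin. They comprise all 70 genes whose symbols start with Hist1h, Hist2h, Hist3h or Hist4h, called replication-dependent, and the 7 variant genes H1f0, H2afx, H2afz, H2afy, H2afv, H3f3a and H3f3b. They were chosen by symbol alone from 55536 annotated genes, of which 22028 are protein-coding. Among the 70, Hist1h2aj, Hist1h2al and Hist3h2bb-ps are annotated as pseudogenes. Total RNA was sequenced from primary neutrophils taken from the peripheral blood of adult C57BL/6J mice aged 5 to 6 weeks, with no treatment or engineered allele in the labels and the sex given as not collected. The series holds 1 group of 2 libraries, numbered biological replicates 1 and 2, each made from 100 ng of RNA with a ScriptSeq v2 kit and a size range of 200 to 1000. Both libraries carry the same donor identifier, so the spread between them may be technical, and no comparison between conditions was possible. The gene tables sum to 22647028 and 21471719 expected counts. For a gene with 0 counts this allows a level of up to 0.132 and 0.140 CPM (3 counts scaled to the library total, counting error only).

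A nucleosome wraps DNA around an octamer of the core histones H2A, H2B, H3 and H4, and the linker histone H1 binds where the DNA enters and leaves. Replication-dependent histone genes are transcribed in S phase, lie in clusters and mostly lack introns, and their mRNAs end just after a stem-loop and carry no poly(A) tail. The stem-loop is bound by the protein encoded by Slbp, which takes part in the maturation, translation and decay of these mRNAs. Most variant genes are made throughout the cell cycle as ordinary polyadenylated mRNAs, and their products can enter chromatin outside replication. Neutrophils leave the bone marrow after their last division, and their decondensed chromatin, histones included, forms extracellular traps.

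The stem-loop is shown first because it is far more frequent in replication-dependent transcripts than in others, although not all of them hold it. Among 16-base windows with paired ends in the first 100 bases after the stop codon, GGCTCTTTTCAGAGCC was held by the most replication-dependent genes (26). Over whole GENCODE M21 transcripts it occurred in 28 of 78 replication-dependent transcripts, against 31 of all 141767 transcripts (0.0219%). A wider pattern, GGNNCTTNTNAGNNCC with letters that pair along the stem, was chosen after the sequences were seen and matched 48 replication-dependent transcripts (61.5%) of 46 genes, against 72 of all transcripts (0.0508%). The genes below carry the results, and the capitals mark the 16 letters of the pattern in a window cut 5′ to 3′ from the sense strand of the GENCODE M21 transcript.
Hist1h1c: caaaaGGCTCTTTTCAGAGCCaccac
Hist1h1e: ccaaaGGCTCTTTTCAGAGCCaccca
Hist1h1d: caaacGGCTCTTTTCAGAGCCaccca
Hist2h2aa1 and Hist2h2aa2: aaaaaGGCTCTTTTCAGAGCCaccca
Hist2h2ac: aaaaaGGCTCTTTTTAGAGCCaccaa
Hist1h2ap: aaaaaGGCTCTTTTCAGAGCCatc
Hist1h3e: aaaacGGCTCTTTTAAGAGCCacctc
Hist1h4h: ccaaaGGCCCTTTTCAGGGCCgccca
Hist1h4m: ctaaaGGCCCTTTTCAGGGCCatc
Hist2h4: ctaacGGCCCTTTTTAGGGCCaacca
Hist1h4b: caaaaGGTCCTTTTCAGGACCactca
H2afx: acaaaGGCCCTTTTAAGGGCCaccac

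The letters of the stem differed by family. The form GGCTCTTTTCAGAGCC was found in 26 genes of the H1, H2A, H2B and H3 families and in 0 of the 13 H4 genes. H4 genes carried other stems, of which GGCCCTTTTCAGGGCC was shared by 7 of them, Hist1h4h and Hist1h4m included. The wider pattern was present in 4 of 6 H1, 11 of 20 H2A, 10 of 19 H2B, 9 of 12 H3 and 12 of 13 H4 genes. It began 21 to 58 bases after the stop codon, with a median of 31 bases over the 46 genes. H2afx, whose product is phosphorylated at DNA breaks, was the variant gene with a match (1 of 30 variant transcripts), and its model went on for 822 bases past it.

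Many gene models did not stop at the stem-loop, and most counts of the replication-dependent genes lay on such models. Transcripts whose model goes on more than 100 bases past the stem-loop (25 transcripts of 23 genes) held 58.0 ± 0.177% of the replication-dependent counts (SD, n = 2) but 27.1 ± 0.490% of their TPM. TPM is the count per base of effective length, scaled to a fixed total per library, so a long model lowers it. The 23 transcripts that end within 100 bases of the stem-loop carried 25.9 ± 0.526% of the counts but 48.4 ± 0.0701% of TPM. A further 15 transcripts with no match stop at the stop codon itself, among them those of Hist1h2ai, Hist2h2bb and Hist1h1b, with 7.02 ± 0.357% of the counts but 18.3 ± 0.234% of TPM. The model of Hist1h1c goes on for 840 bases past its stem-loop, that of Hist1h1e for 1153 and that of Hist1h1d for 4884, while those of Hist2h2aa1 and Hist2h2aa2 go on for 35. Of the 70 genes, 65 have single-exon transcripts only, and of the 7 variants, H1f0 and H2afx do.

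Most replication-dependent histone genes gave signal in these cells. Detection meant a TPM of 1 or more in each of the 2 libraries, and it held for 49 of 70 replication-dependent genes and for 6 of 7 variants, beside 15.7% of all annotated genes and 34.9% of protein-coding genes. At 10 or more counts in both libraries, 58 of 70 and 7 of 7 passed, beside 51.6% of protein-coding genes. By family, 5 of 6 H1, 14 of 20 H2A, 12 of 19 H2B, 6 of 12 H3 and 12 of 13 H4 genes were detected. Of the other 21 replication-dependent genes, 17 stayed under that level in each library and 4 in 1 library only. The annotated pseudogenes Hist1h2aj, Hist1h2al and Hist3h2bb-ps were among these 21. Hist1h2aa and Hist1h2ba, a neighbouring pair known as testis histones, and Hist2h3c1 had 0 counts in both libraries. All 1825 bases of a Hist2h3c1 transcript are identical to Gm20634 on the same strand, which held 982 and 857 counts. Whether reads of this shared sequence were assigned to Gm20634 was not tested. Hist1h1t, the testis linker histone, had 14 and 1 counts, a gene named after its values were seen. Just outside the threshold lay Hist2h2ab at 0.95 and 0.86 TPM and Hist1h2bk at 1.02 and 0.99, and just inside lay Hist1h3d at 1.11 and 1.08 and Hist1h4j at 1.08 and 1.44.

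Both classes held nearly the same share of the counts, although the variants are 7 genes and the replication-dependent genes 70. Replication-dependent genes took 34597 and 35139 expected counts, or 0.153% (95% exact Clopper-Pearson interval 0.151 to 0.154%) and 0.164% (0.162 to 0.165%) of the library. Variant genes took 36613 and 34186 counts, or 0.162% and 0.159%. The mean shares, 0.158 ± 0.00770% and 0.1604 ± 0.00174% (SD, n = 2), differed by less than the spread between the libraries. Per length the order was the other way: the TPM of the replication-dependent genes summed to 547 and 559, and that of the variants to 340 and 326, a variant to replication-dependent ratio of 0.602 ± 0.0259. A single variant gene was typically higher than a single replication-dependent gene, with a median TPM of 17.3 and 17.8 against 2.75 and 2.47. On the log2(TPM + 1) scale the difference of medians was 2.36 ± 0.106 (SD, n = 2), and in the alignment-free table, described below, it was 0.81 ± 0.0810. In bulk RNA such as this, fewer cells of a type and less RNA per cell cannot be told apart.

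Other blood cells also gave signal in these libraries. All 10 neutrophil markers were detected, beside 34.9% of protein-coding genes. Their summed TPM was 3110 and 3060, and the most abundant was S100a9 at 1123 and 1275. The lowest were Ly6g at 1.91 and 2.29 TPM and Cd177 at 3.5 and 4.1. B cell markers were 8 of 8, with a sum of 669 and 599 TPM, red cell and reticulocyte markers 7 of 10 with 4349 and 4282, T cell markers 6 of 6 with 27.0 and 26.6, monocyte markers 4 of 5 with 25.6 and 23.4, and platelet markers 5 of 5 with 23.8 and 24.1. Klf1, an erythroid transcription factor, was at 0.00 and 0.01 TPM, and Ighm, the heavy chain of B cells, at 290.1 and 261. The part of these cells in the histone values was not tested.

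Among the variants, the H3 replacement genes stood highest. H3f3a and H3f3b encode the same replacement H3 protein, which is laid down at active genes and regulatory elements outside S phase. H3f3a (chr1:180800832-180813943, minus strand, GRCm38) was at 184 and 180.0 TPM, with 17423 and 16489 counts, and ranked 32 among protein-coding genes by mean TPM. H3f3b (chr11:116021912-116027962, minus strand) was at 112 and 104 TPM and ranked 86. H3f3a was higher in both libraries, by a TPM ratio of 1.65 and 1.73, and the values of the genes did not overlap. The ratio was 1.49 ± 0.0431 in the alignment-free table and 1.16 ± 0.0237 in counts, where the mean model length of replicate 1 was 1558 bases for H3f3b and 1133 for H3f3a. Together the replacement H3 genes held 19.2 and 15.7 times the summed TPM of the 12 replication-dependent H3 genes.

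The H2A variants followed. H2afy, which encodes macroH2A, was at 20.2 and 17.8 TPM, and H2afz, which encodes the H2A.Z placed at promoters, was at 17.3 and 19.6 TPM. Their order changed between the libraries, and their ratio of 1.04 ± 0.185 did not differ from even beyond its spread in TPM of the gene table. H2afy was the higher in counts, by 3.40 ± 0.0644-fold, and in TPM of the alignment-free table, by 4.62 ± 0.348-fold. H2afv, the H2A.Z paralogue, was at 3.97 and 3.37 TPM, and H2afx was at 1.72 and 1.43. H1f0, the linker histone that accumulates in many resting and differentiated cells, was lowest, at 0.58 and 0.27 TPM, with 108 and 50 counts. Its count ratio of replicate 2 to replicate 1 was 0.488 (95% exact conditional interval 0.342 to 0.689, counting error only). Apart from H2afy and H2afz, neighbours in this order did not overlap between genes.

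**Figure D1:**
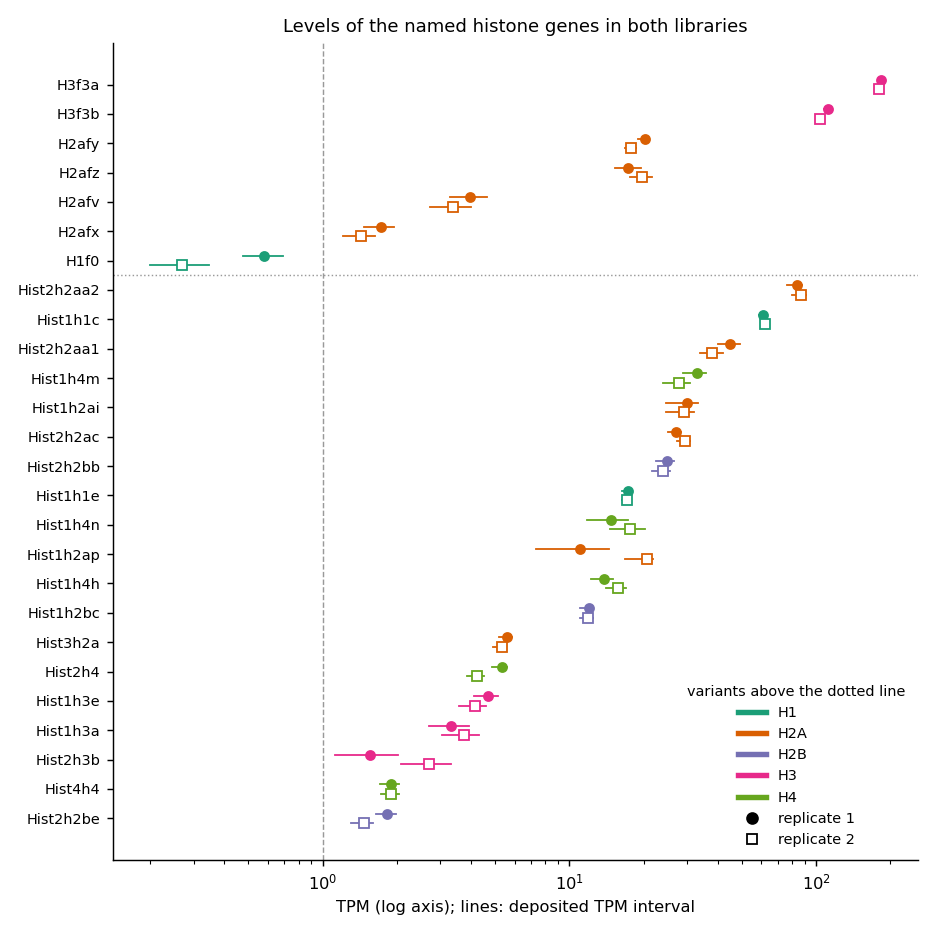
TPM of each named histone gene in both libraries on a log axis, with the deposited interval of each value as a line and the dashed line at a TPM of 1. The H3 replacement genes H3f3a and H3f3b lie above 100 TPM, while the highest replication-dependent genes, Hist2h2aa2 and Hist1h1c, lie between 61.2 and 87.3.

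The transcripts behind the variant values were unevenly certain. For H3f3a, the 888-base coding transcript H3f3a-201 took 83.2 and 84.7% of the gene's TPM in the deposited transcript table, and the 2841-base H3f3a-205 took 12.8 and 10.6%. For H3f3b, the coding H3f3b-201 took 60.8 and 57.6% and the noncoding processed transcript H3f3b-204 took 29.6 and 29.9%. For H2afz, a 349-base transcript annotated for nonsense-mediated decay, H2afz-204, took 56.9 and 68.1% of the TPM, with 178 and 251 of the gene's 772 and 746 counts, and the coding H2afz-201 took 28.1 and 17.5%. H2afy-201 and H2afy-202 moved between the libraries, at 30.7 and 45.0% against 16.3 and 9.47%. The alignment-free table put H2afz lower, at 9.08 and 6.87 TPM, and there its ratio to H2afv was 1.10 ± 0.104 instead of 5.10 ± 1.04.

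The linker histones were carried by Hist1h1c. Hist1h1c (chr13:23738808-23740367, plus strand) was at 61.2 and 62.2 TPM with 8342 and 8568 counts, and alone held 24.1 and 24.4% of all replication-dependent counts. Hist1h1e, a further somatic H1 gene, was at 17.3 and 17.2 TPM, and Hist1h1c exceeded it 3.58 ± 0.0507-fold per length. Hist1h1b and Hist1h1a followed at 6.27 and 7.54, and at 6.43 and 6.85 TPM, which overlap. Hist1h1d was at 2.47 and 2.32 TPM. Its 1750 and 1658 counts still made it the fifth gene by mean counts, just ahead of Hist1h2be at 1789 and 1475. On the older GENCODE M4 models, described below, Hist1h1c was at 61.9 and 62.9 TPM, Hist1h1e at 34.9 and 34.7 and Hist1h1d at 19.1 and 19.2. The folds and the order among H1 genes therefore depended on the gene models. No H1 gene in this class shares 100 or more bases at 95% identity with another H1 gene, so the H1 values rest on distinct sequence, apart from the overlap of Hist1h1e with Hist1h2be.

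The H2A genes held the largest part of the TPM. Hist2h2aa2 (chr3:96239749-96240276, minus strand) was at 83.5 and 87.3 TPM and Hist2h2aa1 (chr3:96245497-96246082, plus strand) at 45.0 and 37.9 TPM. They lie on opposite strands and share sequence, and their sum was 129 and 125 TPM. The ratio between them was 2.08 ± 0.319 in the gene table and 1.37 ± 0.0270 in the alignment-free table. A processed transcript on the same strand as Hist2h2aa1, Gm20634, held 982 and 857 counts. Its sequence is 100% identical to all 528 bases of Hist2h2aa2 and to 529 bases (90.3%) of Hist2h2aa1. Hist1h2ai was at 30.1 and 29.3 TPM, Hist2h2ac at 27.2 and 29.5 and Hist1h2ap at 11.1 and 20.7. Hist3h2a was at 5.61 and 5.32 TPM on a model that goes on for 1643 bases past its stem-loop.

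The other core families had fewer genes at high levels. The median gene was at 5.31 and 5.78 TPM for H4, 3.43 and 2.08 for H2A, 2.69 and 2.10 for H2B and 0.79 and 1.33 for H3. Among H2B genes, Hist2h2bb was at 24.9 and 24.0 TPM and Hist1h2bc at 12.0 and 11.9, while Hist2h2be was at 1.83 and 1.47. Among H4 genes, all of which encode the same protein, Hist1h4m was at 32.9 and 27.7 TPM, Hist1h4n at 14.7 and 17.7, Hist1h4h at 13.8 and 15.7, Hist2h4 at 5.31 and 4.23 and Hist4h4 at 1.90 in both. Hist1h4m and Hist1h4n differ by 1 mismatch over 402 bases, and their sum was 47.6 and 45.4 TPM. The highest H3 genes were lower: Hist1h3e was at 4.67 and 4.14 TPM, Hist1h3a at 3.32 and 3.74, and Hist2h3b at 1.55 and 2.70. No replication-dependent H3 gene reached 5 TPM.

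A core nucleosome holds the core histones in equal numbers, but the replication-dependent mRNA signal was not even between families. The family sums given next leave out the variant genes, whose products also enter nucleosomes. The variants H3f3a and H3f3b together summed to 296 and 284 TPM. In TPM, H2A summed to 238 and 240.0, H4 to 105 and 109, H2B to 95.3 and 96.4, H1 to 93.8 and 96.1, and replication-dependent H3 to 15.4 and 18.1. As shares of the class, H2A held 43.2 ± 0.368% of TPM and 26.6 ± 0.0787% of counts, and H1 held 17.2 ± 0.0370% of TPM and 39.9 ± 0.0658% of counts (SD, n = 2). The family that led therefore depended on whether the signal was divided by model length. Within this class, H3 had the smallest share on both scales, with 3.02 ± 0.301% of TPM and 2.67 ± 0.0313% of counts. The signal was concentrated: Hist1h1c, Hist2h2aa2, Hist1h1e, Hist2h2aa1 and Hist1h1d held 51.4 ± 0.363% of the counts, and the 12 genes highest in TPM held 68.2 ± 0.0767% of the TPM.

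**Figure D2:**
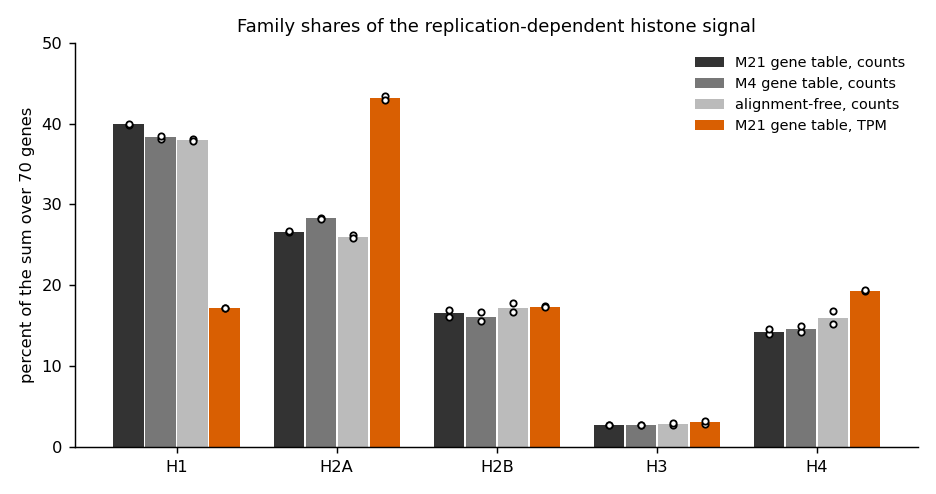
Share of the summed replication-dependent signal in each family as bars (mean of 2 libraries, points for each library), by counts in the M21, M4 and alignment-free tables and by TPM in the M21 gene table. H1 leads by counts in all 3 count tables, at 37.9 to 39.9%, and H2A leads by TPM at 43.2%. Of the 70 genes, 3 have no entry in the M4 table.

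Between the libraries the histone classes were close in level. The count ratio of replicate 2 to replicate 1, scaled to each library's total, was 1.07 (95% exact conditional interval 1.06 to 1.09) for the replication-dependent class and 0.985 (0.970 to 1.000) for the variants. By family it was 1.12 (1.08 to 1.16) for H4, 1.07 (1.05 to 1.10) for H1, 1.08 (1.05 to 1.11) for H2A, 1.02 (0.979 to 1.05) for H2B and 1.09 (0.994 to 1.19) for H3. The median log2 ratio of TPM + 1 over the 53 replication-dependent genes at a TPM of at least 1 in either library was 0.04, that of the variants -0.13 and that of all 9097 genes tested -0.08. Another scaling shifts all genes of a library alike: the variant median was 0.01 with TMM factors, and the replication-dependent median stayed above 0 with TMM, DESeq2 and CPM scaling, at 0.12 to 0.14, but was -0.05 in the alignment-free table.

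A few genes differed strongly between libraries, and each of them, like most of the class, matches other histone genes at 95% identity or more. A gene was called at a 2-fold change of TPM + 1, given a TPM of at least 1 in either library and at least 50 counts in the higher. Of 50 replication-dependent genes tested, 3 were called lower and 1 higher in replicate 2, and of 6 variants 0 were called, beside 0.923% of all genes tested (0.561% higher, 0.363% lower) and 0.159% of protein-coding genes. These 4 genes are named after their values were seen. Hist1h2ao was at 7.62 and 0.00 TPM, with 234 and 0 counts, which is at least 74.1-fold lower against a floor of 3 counts. Hist1h2ah was at 5.69 and 1.23 TPM, and Hist1h4b at 3.15 and 0.76, with count ratios of 0.236 (0.153 to 0.353) and 0.264 (0.150 to 0.453). Hist1h3i was at 0.33 and 2.62 TPM, with 8.03 and 65.1 counts and a ratio of 8.55 (4.10 to 20.7). For Hist1h2ao the alignment-free table, described below, gave 193 and 72.0 counts.

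Sequence sharing was wide in the class, and its part in these calls was not tested. At 95% identity or more over at least 100 bases, 52 of 70 replication-dependent genes matched another of them, 15 matched a gene outside the class, and 15 matched none. Hist1h2ao and Hist1h2ap are identical over 452 bases with 0 mismatches. Their summed counts were 577 and 657, a ratio of 1.20 (1.07 to 1.35), and their summed TPM was 18.7 and 20.7. The 13 Hist1h2a genes that share sequence summed to 75.2 and 78.8 TPM, the 12 H3 genes to 15.4 and 18.1, 6 H4 genes to 71.1 and 69.2, and 4 H2A genes of Hist2h2aa1, Hist2h2aa2, Hist2h2ac and Hist1h2al to 156 and 155. Among the variants, H3f3a matched 21 other genes, H2afz 4 and H3f3b 3, none of them members.

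**Figure D3:**
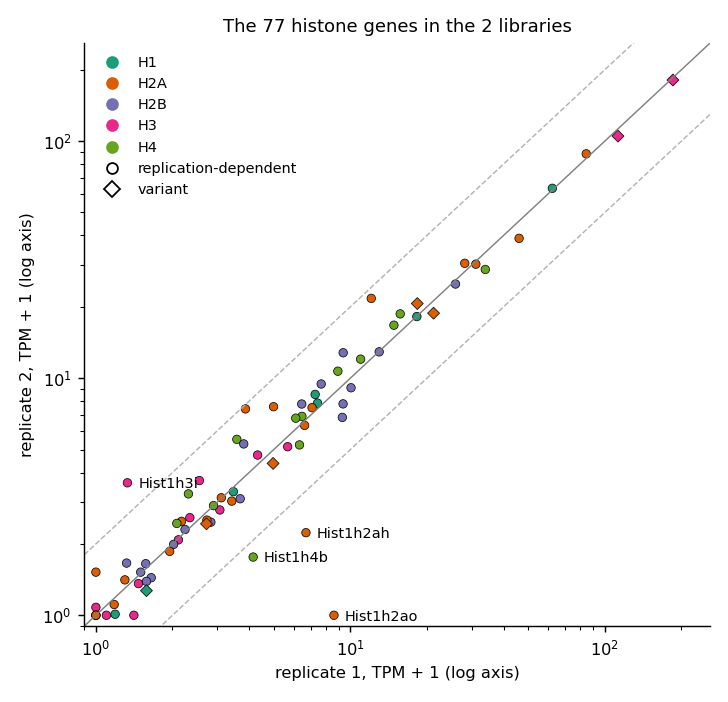
TPM + 1 of all 77 histone genes in replicate 1 (x, log axis) against replicate 2 (y, log axis), coloured by family, with equality as a solid line and 2-fold as dashed lines. The 4 labelled genes lie outside the 2-fold lines with enough counts to be called, and all 4 are replication-dependent.

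The deposited TPM intervals, whose level is not stated in the sources used here, gave a finer view. They did not overlap between the libraries for 15 of 53 replication-dependent genes (9 higher and 6 lower in replicate 2) and for H3f3b and H2afy among the 6 variants tested (both lower), beside 27.0% of all genes and 26.9% of protein-coding genes at a TPM of at least 1. The share of histone genes was thus near the background. Hist2h4, which matches no other gene at this identity, was 1 of those apart, at 5.31 and 4.23 TPM.

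Annotated neighbours add a further limit. In all, 7 replication-dependent genes overlap another gene on the same strand, and 23 replication-dependent and 4 variant genes overlap a gene on the opposite strand. For most of these 23, the only opposite gene is an annotated miRNA with at most 0.33 counts in either library. The genes opposite H2afx, H2afy and H1f0 had at most 2 counts in either library. Whether the tables were counted by strand is not given in the sources used here, so reads of opposite genes cannot be told apart with certainty. Opposite H3f3a lies Gm17275, with 821 and 794 counts, and opposite Hist2h2aa2 and Hist2h2aa1 lie Gm20632, with 196 and 194, and Gm20633, with 249 and 288. Each is below the count of the histone gene opposite it, but Gm20628, which lies opposite all 488 bases of Hist2h3b, had 137 and 112 counts against 49 and 87.2 for Hist2h3b itself. Hist1h2be and Hist1h1e share 496 bases on the same strand.

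The alignment-free table, which assigns reads to transcripts without an alignment listed among its parents, gave few histone genes at another level in counts. In TPM, the difference of medians between the classes was 2.36 in the gene table and 0.81 in the alignment-free table. CPM values were called at a 2-fold difference in the same direction in both libraries, with at least 10 counts in the higher table. Of 60 replication-dependent genes tested, 1 was higher in the alignment-free table and 1 lower, and of 7 variants 0 were called, beside 28.8% of all genes tested (27.7% higher, 1.11% lower) and 15.9% of protein-coding genes. Hist1h2bk had 31.0 and 30.9 counts in the gene table and 101 and 78.9 in the alignment-free table, a mean fold of 2.27 after scaling. Hist1h2ah had 134 and 29.8 counts against 83.6 and 13.3, a mean fold of 0.416. H2afz came close to the line at a mean fold of 0.510, with 561 and 431 counts against 772 and 746. The median fold was 0.978 for the replication-dependent genes and 0.905 for the variants, against 1.13 for all genes tested.

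Several replication-dependent genes differed between annotation releases, mostly those with a changed model length. The authors' gene table on the older GENCODE M4 models was set against the M21 table, a comparison added after the gene models were seen. Of 49 replication-dependent genes tested, 5 had a TPM + 1 at least 2-fold higher under M4 in both libraries and 2 lower, beside 0.632% higher and 1.65% lower of all genes, and of 6 variants 0 were called. Hist1h1d was at 2.47 and 2.32 TPM on a 7425-base M21 model and at 19.1 and 19.2 TPM on a 744-base M4 model, a ratio of 8.01 ± 0.384. The short model held 63.5 ± 3.40% of the gene's M21 counts in 10% of the length. Hist1h2ac was 6.46 ± 0.0584-fold higher, at 11.2 and 9.75 TPM, on 476 instead of 2482 bases, and held 86.5 ± 0.410% of the counts. Hist1h4d and Hist1h4c were 3.39 ± 0.170-fold and 2.37 ± 0.168-fold higher on shorter models. Hist1h1e, just short of the call, was at 34.9 and 34.7 TPM under M4, 2.02 ± 0.00159 times its M21 level. In the M21 release 18 of the 67 genes present in both are longer, 44 are the same and 5 are shorter. Hist1h2bk, at 4.09 and 5.80 TPM, and Hist1h2ah, at 1.5 and 0.00 TPM, were called with unchanged lengths and share sequence with other histone genes, and Hist1h2bq was lower on a longer M4 model. Hist1h1d, Hist1h2ac, Hist1h4c and Hist1h4d are named here after their values were seen.

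**Figure D4:**
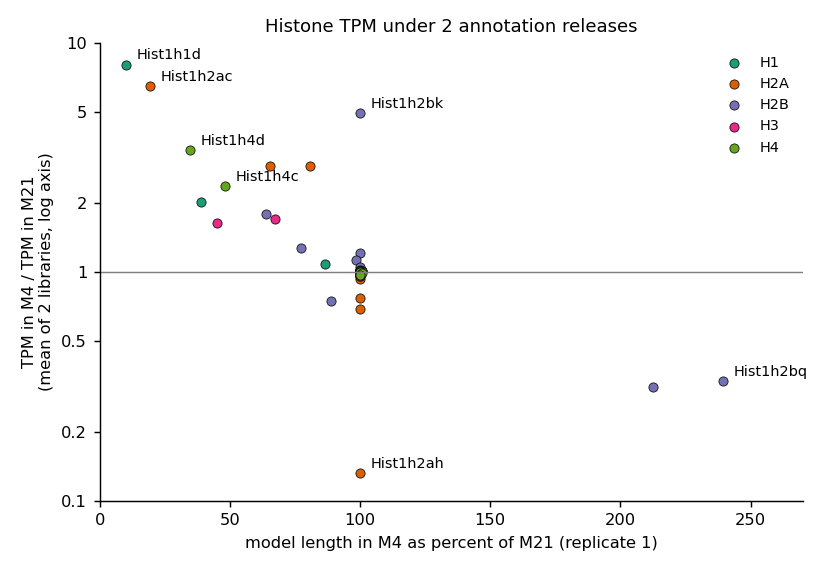
Ratio of a gene's TPM in the M4 table to that in the M21 table (y, log axis, mean of 2 libraries) against its M4 model length as a percent of its M21 length (x, replicate 1), for the genes tested, coloured by family. Most genes with a shorter M4 model lie above 1 at the left, with Hist1h2bb as an exception at 89.0% of the length and a ratio of 0.745, and the highest is Hist1h1d at 10% of the length and a ratio of 8.01, and most genes of equal length lie at 1.

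By position, the Hist1 genes on chromosome 13 carried most counts. The 56 Hist1 genes lie in a block of 24 (chr13:21715763-22043676), a block of 31 (chr13:23531050-23934851) and a lone pseudogene, and held 73.8 ± 0.665% of the class counts and 64.2 ± 0.866% of its TPM. The 10 Hist2 genes (chr3:96219865-96270132) held 21.6 ± 0.550% of counts and 34.3 ± 0.822% of TPM. Hist3 on chromosome 11 and Hist4h4 on chromosome 6 held 3.16 ± 0.112% and 1.44 ± 0.00368% of counts. Of the Hist1 genes 40 of 56 were detected, of the Hist2 genes 7 of 10, of the Hist3 genes 1 of 3, and Hist4h4 was.

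Genes that share a promoter region head to head were often unequal. Within 1000 bases, 15 such pairs lie 173 to 660 bases apart, and 14 of them join an H2A with an H2B gene. H2A and H2B proteins form a dimer, but Hist3h2bb-ps and Hist1h2aj, each in 1 of these pairs, are annotated as pseudogenes. In 8 pairs both genes were detected, in 5 only 1, and in 2 neither, beside 49 of 70 single genes of the class. Whether this differs from what that share alone would give was not tested. Hist2h2ac, at 27.2 and 29.5 TPM, lies 239 bases from Hist2h2be, at 1.83 and 1.47, a 17.2-fold difference of mean TPM with no overlap. Hist2h2be has a 2620-base model and Hist2h2ac a 520-base model, and in counts the difference was smaller, at 941 and 1047 against 439 and 356. Hist1h2ai, at 30.1 and 29.3 TPM, lies 279 bases from Hist1h2bl, at 1.24 and 1.3, a 23.4-fold difference, although both share sequence with other genes. The direction was not fixed, since Hist1h2ac, at 1.73 and 1.52 TPM, lies 251 bases from the higher Hist1h2bc, at 12.0 and 11.9, with 392 and 347 counts on 2482 bases against 1160 and 1167 counts on 1156 bases.

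Promoter letters are shown for genes of these pairs, which share this DNA, for Hist2h2bb and Hist1h1c, the highest H2B and H1 genes, and for H3f3b. In the RefSeq promoter table (GRCm38.p6, 250 bases before to 50 after each start), 62 replication-dependent genes and 6 variants were matched. Each motif was searched on both strands, and none contains another. TATAAA, the core of the TATA box, was present in 56.5% of the replication-dependent promoters, beside 13.6% of all 32851 promoters of the same length. CCAAT was present in 85.5% beside 37.4%, and ATTTGCAT, the octamer known from H2B promoters, in 21% beside 1.74%. CCAAT was found in every matched H1, H2A, H2B and H3 promoter (6, 18, 16 and 10) but in 3 of 12 H4 promoters, and the octamer in 7 H2A and 6 H2B promoters and none of the other replication-dependent families. Of 44 promoters of detected genes 27 held TATAAA, 36 CCAAT and 9 the octamer, and of 18 promoters of other genes 8, 17 and 4 did. The windows are the 120 bases before the RefSeq start, on the gene's strand, with the motifs on either strand in capitals.
Hist2h2ac (chr3:96220881-96221000, minus): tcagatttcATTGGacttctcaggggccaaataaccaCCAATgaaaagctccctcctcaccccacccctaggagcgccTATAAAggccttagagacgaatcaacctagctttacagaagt
Hist1h2ai (chr13:21716292-21716411, plus): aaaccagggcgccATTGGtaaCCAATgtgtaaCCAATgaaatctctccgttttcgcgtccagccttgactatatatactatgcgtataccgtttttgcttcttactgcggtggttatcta
Hist1h2bl (chr13:21716184-21716303, minus): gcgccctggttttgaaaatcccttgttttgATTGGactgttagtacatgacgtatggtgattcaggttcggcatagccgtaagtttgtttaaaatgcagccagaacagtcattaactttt
Hist2h2bb (chr3:96269580-96269699, plus): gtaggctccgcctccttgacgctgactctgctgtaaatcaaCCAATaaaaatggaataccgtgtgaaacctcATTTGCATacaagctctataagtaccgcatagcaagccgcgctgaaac
Hist1h1c (chr13:23738687-23738806, plus): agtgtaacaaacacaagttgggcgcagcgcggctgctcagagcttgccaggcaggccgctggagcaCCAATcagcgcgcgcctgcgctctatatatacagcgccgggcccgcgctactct
H3f3b (chr11:116024505-116024624, minus): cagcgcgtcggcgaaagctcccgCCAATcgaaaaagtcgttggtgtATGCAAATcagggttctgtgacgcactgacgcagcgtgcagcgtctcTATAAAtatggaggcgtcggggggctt

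Among the 6 variant promoters, H3f3b was the only match for TATAAA and the only match for the octamer. Hist2h2ac holds CCAAT on both strands and TATAAA in the window shown. A match is a description of letters, not of a bound site.

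Genes that act on histone mRNA and histone protein were present to different degrees. Of 19 genes for histone gene transcription and mRNA 3′ end formation, 15 were detected, beside 34.9% of protein-coding genes. The median over the list was 2.95 ± 0.198 TPM. Fip1l1, a cleavage and polyadenylation factor, was highest at 14.3 and 13.5 TPM, followed by Slbp at 10.5 and 10.7 and the histone mRNA endonuclease Cpsf3 at 9.63 in both. Lowest were Zfp473 and E2f1, each at 0.13 and 0.08. Of 13 genes found for cap binding, export and decay, 12 were detected. The list's median was 3.43 ± 0.00707 TPM, and it was led by Srsf3 at 53.6 and 46.9, Tut7, a uridylyl transferase, at 37.2 and 31.7, and Srrt at 28.0 and 27.1, with Ncbp2 lowest by mean at 1.3 and 1.13 TPM and Lsm1, the member not detected, at 1.73 and 0.86.

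Histone chaperones were grouped by whether they take part in deposition at replication, and the groups do not exclude other roles of a member. All 17 genes of replication-independent deposition and remodelling were detected, beside 34.9% of protein-coding genes, and their median level was 4.06 ± 0.170 TPM. Npm1 (52.7 and 48.6), Atrx (44.4 and 33.6), which loads the replacement H3 with Daxx, and Nap1l1 (33.6 and 28.3) led, with Asf1a lowest by mean at 3.19 and 1.98, next to Znhit1 at 2.74 and 2.45. Of 12 replication-coupled chaperones 7 were detected, and the median level was 1.503 ± 0.194 TPM. Ssrp1 and Supt16, the subunits of the FACT complex, were at 11.4 and 11.3 and at 8.41 and 8.29, and Nasp was at 9.0 and 7.21. Chaf1a, a subunit of the chromatin assembly factor at replication forks, was lowest at 0.12 and 0.11 TPM. Of 21 S-phase and division genes 9 were detected, again beside 34.9% of protein-coding genes, and the list's median was 0.440 ± 0.0283 TPM. Pcna was highest at 12.8 and 10.02 TPM, then Mcm7 at 7.40 and 7.31 and Rrm1 at 4.34 and 4.73, and the cyclin gene Ccna2 was lowest at 0.01 and 0.04.

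Histone enzymes of extracellular traps were represented by Padi4, which citrullinates histones, at 12.7 and 13.2 TPM. It was the only 1 of 7 detected, beside 34.9% of protein-coding genes. Padi2 was at 0.72 and 0.76, the granule gene Mpo at 0.04 and 0.08, and Padi3, Elane and Ctsg had 0 counts. Of 11 further histone variants found, 3 were detected. H3f3c was at 5.78 and 4.17 TPM, the centromeric H3 gene Cenpa at 4.82 and 4.62, and H2afj at 4.89 and 4.09, and the other 8, H1fx among them, had 0 counts.

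**Figure D5:**
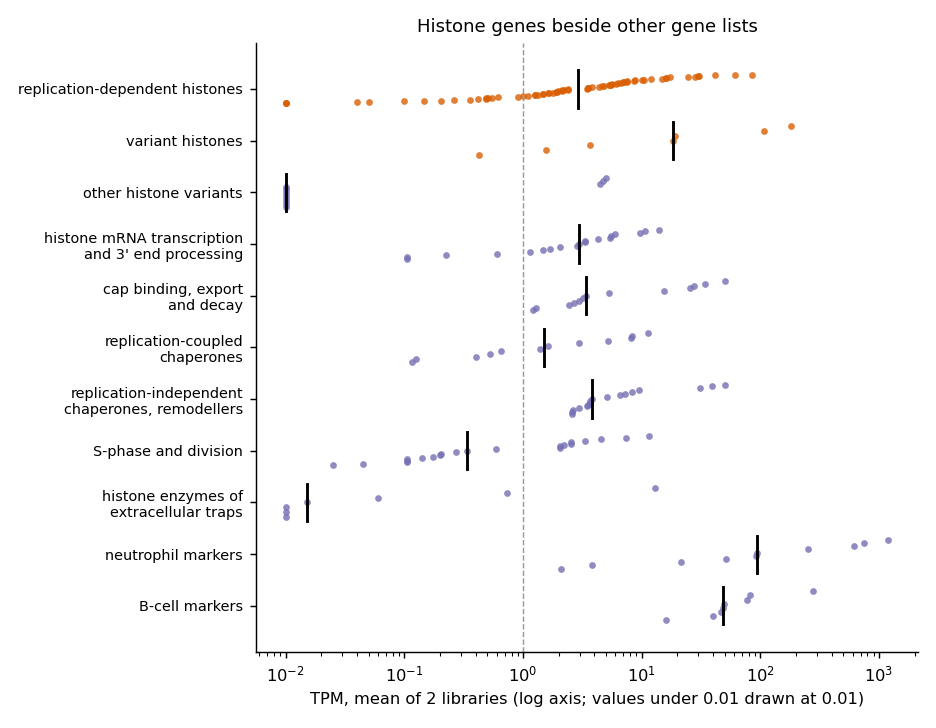
Mean TPM of each gene in the 2 libraries on a log axis, with a bar at the median of each list and values under 0.01 drawn at 0.01. Replication-independent chaperones all lie above the dashed line at a TPM of 1, while the S-phase list lies mostly below it and the replication-dependent histones spread across it. Of protein-coding genes, 34.9% reached that level in both libraries.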

How the data were processed

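Members and lists were chosen with earlier results of these data known. The authors deposited gene tables on GENCODE M21 and M4 (mm10) with an expected count and a TPM per gene, per the file headers, and M21 adds lower and upper bounds of each TPM, a signal value as deposited by the authors. Per the file headers, a deposited transcript table holds each transcript's percent of its gene's TPM. The deposited alignment-free table holds estimated counts and TPM by transcript, per the file headers, and was summed per gene. The programs behind them, the use of strand and the interval level: not given in the sources used here. Entries with no gene name stayed out of gene groups.

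Shares were computed on unrounded expected counts, levels between genes on TPM, and folds on TPM + 1 (pseudocount 1). With 1 group of 2 libraries, no p-value was computed. Intervals are exact (95%) and cover counting error only, and the fold and interval script was tested on simulated data. Transcripts were compared with BLAST+ 2.17.0. Analyses used Python 3.11.15, pandas 2.3.3, scipy 1.17.1 and R 4.3.3, with edgeR 4.0.16 and DESeq2 1.42.0 for alternative scalings.

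Named with values were all 7 variants, the 12 replication-dependent genes highest in mean TPM, the 2 highest of each family, Hist2h, Hist3h and Hist4h genes at a TPM of at least 1 in either library, genes called between tables, and the 3 highest and the lowest of each list. This rule did not cover the cell type markers. Other genes named were chosen after their values were seen. Zcchc6, an older symbol of Tut7, and Zcchc11 and H3f5 were not matched.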

Additional observations from a re-analysis of the deposited data

How the results depend on the processing

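Of 94 alternatives over 18 results, 45 stayed within the spread between libraries or within 1.5 times the count, 46 moved further and 3 turned sign. With a detection threshold of 5 TPM, 26 replication-dependent genes passed. At 0.1 TPM 61 passed, and 61 also passed with TPM rescaled to nuclear protein-coding genes. For all 70 genes, the share was 0.218% of protein-coding counts, 0.0553% of TPM and 0.147% in the alignment-free table. That of the variants was 0.221%, 0.0333% and 0.152%, with 0.168% under M4. Of the TPM of nuclear protein-coding genes alone, the 70 genes made up 0.645% and the variants 0.388% (mean of both libraries). The difference of medians became 2.71 with a pseudocount of 0.1 and with TPM rescaled to nuclear protein-coding genes, 1.56 over detected genes, 2.11 under M4, 0.81 in the alignment-free table and 1.88 with models shortened to the stem-loop, an alternative added after the data were seen. In percent of TPM, the family shares were 17.2 for H1, 43.2 for H2A, 17.3 for H2B, 3.02 for H3 and 19.3 for H4. The M4 shares were 38.3 for H1, 28.3 for H2A and 2.71 for H3, and the alignment-free shares 37.9, 26.02, 17.2, 2.82 and 15.99. The 5 highest genes held 45.0% of TPM, 53.1% of M4 counts and 48.9% of alignment-free counts. The log2 difference of H3f3b from H3f3a was -0.57 in the alignment-free table. The replication-dependent median log2 ratio between libraries was 0.14 with TMM, 0.13 with DESeq2 factors, 0.12 in CPM, 0.063 with a pseudocount of 0.1, 0.0046 with no filter and -0.049 in the alignment-free table. That of the variants was 0.013 with TMM, 0.0066 with DESeq2 factors, -0.0070 in CPM, -0.16 with no filter and -0.20 in the alignment-free table. Genes called between libraries numbered 8 at 1.5-fold and 0 with sequence-sharing genes summed. Hist1h2ao, Hist1h4b, Hist1h3i and Hist1h2ah each hold too few of their group's counts to move its sum 2-fold. That 0 therefore could not test their calls. Genes called numbered 1 between the gene and alignment-free tables at 50 counts, and between releases 11 at 1.5-fold. The share of counts on stem-loop transcripts, 64.7% for the exact letters, was 69.8% with 1 mismatch, 17.4% in the last 100 bases and 83.9% with the wider pattern. The cause of these moves was not tested. With either library left out, 50 to 52 genes were detected, the shares were 0.153 to 0.164% and 0.159 to 0.162%, the difference of medians was 2.29 to 2.44, the 5 highest genes held 51.2 to 51.7%, and the stem-loop share was 64.6 to 64.8%. No paired analysis was possible because the series has 1 group. Depth limits a gene at 0 counts to up to 0.140 CPM.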
